A study of Caenorhabditis elegans with 4 samples.

Results

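The regions described here are the narrow LET-418 peaks found in both ChIP replicates. They are the peaks of the series-wide list that are 1000 bp wide or less and overlap at least 1 peak of each replicate list by 1 bp or more. The rule gave 1445 regions of the 13690 series-wide peaks, or 10.9% of the 13297 series-wide peaks within the width limit. The regions were chosen by their measured width and their overlap with peaks of both replicates, so both are given as description and no test was made on them. Replicate 1 set the number: 12384 of the narrow peaks met replicate 2, 1460 met replicate 1, and 928 met both with at least 50% of their length covered. LET-418 was mapped by chromatin immunoprecipitation and sequencing (ChIP-seq) in whole N2 animals of Caenorhabditis elegans at larval stage L3. The animals had a wild-type genotype, were a mixed population of males and hermaphrodites, and were kept at 20 °C. The 4 samples are 2 ChIP samples, made with a rabbit polyclonal antibody, and 2 input DNA samples, each numbered 1 and 2. Whole larvae were used, so a peak does not say in which cells the protein was bound.

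LET-418 belongs to the Mi-2/CHD4 family of chromatin remodellers, enzymes that use ATP to move nucleosomes. It is a catalytic subunit of the NuRD complex, which also carries histone deacetylase activity, and of the MEC complex, which it forms with MEP-1 and HDA-1. In the worm LET-418 is known for keeping germline genes silent in somatic cells and for its part in vulval cell fate. Worm autosomes have gene-dense centres and arms that are richer in repeated sequence.

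Each of the 3 lists gives a start, an end and a score per peak on the WormBase WS220 assembly. Replicate 1 had 1887 peaks, replicate 2 had 19594, and no read counts accompany them, so depth is unknown and list length cannot be told apart from depth. The 1445 regions met 1513 of the replicate 1 peaks, or 80.2% of that list, and 1533 of the replicate 2 peaks, or 7.82% of that list. The score is the authors' own and its scale is not named. It was therefore turned into a percentile within its own list, where 100 is the highest. Each ChIP replicate gives 1 list, so no test between replicates was possible. Intervals beside shares are 95% Wilson intervals that cover counting error over peaks only, and neighbouring peaks are not independent. No gene model on WS220 was used here, so no region was assigned to a gene.

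Among narrow series-wide peaks, the regions found in both replicates were wide ones. Their median width was 395 bp (quartiles 283 and 567), against 236 bp (187 and 335.5) for the 10939 narrow peaks that met replicate 2 only. The narrowest was 175 bp, at I 11228880 to 11229054, although all 3 lists hold peaks down to 146 bp. The widest region inside the limit was I 14181147 to 14182144 at 998 bp, followed by V 18329959 to 18330955 at 997 bp. The narrowest shared peaks beyond the limit were IV 2233614 to 2234616 at 1003 bp and I 10977969 to 10978978 at 1010 bp. A further 201 shared peaks exceeded 1 kb. Scores inside and outside the width limit overlapped. The 998-bp region had a series-wide score of 10.24 and the 997-bp region 38.2, while the 1003-bp peak had 23.55 and the 1010-bp peak 12.72.

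The regions found in both replicates lay mostly in 1 outer part of each autosome and were scarce on X. Chromosome III carried 390 of them, II 293, V 249, I 247, IV 202 and X 64. The density was highest on III, at 28.3 regions per Mb, followed by 19.2 per Mb on II and 16.4 on I. It was 11.9 on V, 11.5 on IV and 3.61 on X. As a share of the narrow series-wide peaks of a chromosome, the order differed. The share was 14.6% on III, 13.5% on II, 11.8% on V, 10.0% on IV, 9.99% on I and 3.44% on X. Over all chromosomes it was 10.9%. X held 4.43% of the regions (3.48 to 5.62), against 15.8% (15.2 to 16.5) of the narrow peaks in replicate 2 only. The middle of 3 equal parts of an autosome held 14.8% of the autosomal regions (13.0 to 16.7), against 27.4% (26.5 to 28.4) of the autosomal narrow peaks in replicate 2 only. The 201 shared peaks over 1 kb had overlapping intervals, with 4.98% on X (2.72 to 8.91) and 15.2% of the autosomal ones in the middle parts (10.8 to 20.96). Both shares of the regions rest on replicate 1: among all narrow peaks that met replicate 2, X held 14.5% and the autosomal middle parts 25.8%.

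The share of narrow series-wide peaks that both replicates held was uneven along each chromosome. It was 24.2% in the left part of III and 23.7% in the left part of II, and 20.02% in the right part of V. At the opposite outer parts it was 5.90% on III, 7.85% on II and 4.35% on V. On I it was 14.2% in the right part and 5.90% in the left part, and on IV it was 13.7% in the left part and 6.82% in the right part. In the autosomal middle parts it lay between 5.70% on IV and 8.85% on I. Both replicates together met 3.44% of the narrow peaks on X, 7.12% of those in the autosomal middle parts and 13.7% of those in the autosomal outer parts. Replicate 2 with or without replicate 1 met 96.7%, 95.3% and 91.6% of the same peaks.

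**Figure D1:**
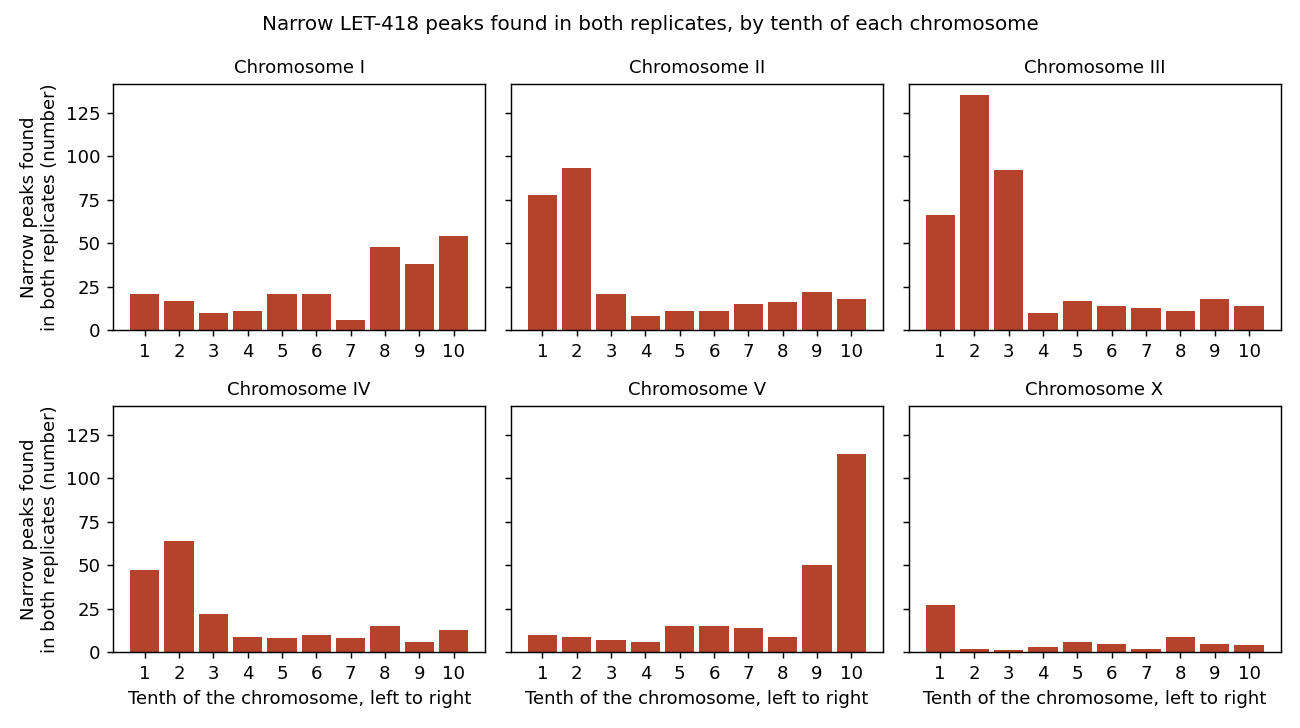
Number of narrow LET-418 peaks found in both replicates (vertical axis) in 10 equal parts of a chromosome from left to right (horizontal axis), with 1 panel per chromosome. Part 2 of III holds 135, or 27.2% of its narrow series-wide peaks, and part 10 of V holds 114, or 25.8%. Of the 64 on X, 27 lie in part 1, where they are 16.1% of the narrow series-wide peaks.

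The regions were concentrated in few stretches. Of 203 bins of 500 kb, 20 held 50% of the regions, 19 held none, and the median bin held 3. The same counts for all narrow series-wide peaks are not given here, so these numbers describe the regions alone. The fullest bin was III from 1.5 to 2 Mb, with 81 regions of 258 narrow peaks, or 31.4%. Over all narrow series-wide peaks the share was 10.9%. The highest share among the 15 fullest bins was 41.3%, in the bin of II from 2 to 2.5 Mb with 59 of 143. Next by number came II from 1 to 1.5 Mb with 54 of 197 narrow peaks, or 27.4%. III from 3 to 3.5 Mb held 53 of 177, or 29.9%, and V from 19.5 to 20 Mb held 48 of 152, or 31.6%.

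On X the regions were crowded at the left end. The first 500 kb of X held 22 of its 64 regions, and the last 500 kb held 1. Regions made up 27 of the 168 narrow series-wide peaks in the first of 10 equal parts of X, or 16.1%. In the last part, regions were 4 of 206, or 1.94%. The leftmost, X 5310 to 6194, had percentiles of 82.5 in the series-wide list, 41.5 in replicate 1 and 0.013 in replicate 2, where its matched peak had the lowest score of the list, 1.31. That region met 2 replicate 2 peaks, and the matched one, to which the percentile belongs, covered 418 of its 885 bp. The regions in the first 500 kb of X had median percentiles of 52.4 in replicate 1 and 79.3 in replicate 2. For the other 42 regions on X these were 28.99 in replicate 1 and 90.6 in replicate 2. The medians of the 2 parts of X thus had opposite orders in the replicates. Away from that end the regions on X were isolated, with a median of 105449.5 bp to the nearest other region, while inside it the median was 1826 bp.

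The regions lay close to other LET-418 peaks and often close to each other. The nearest series-wide peak of any kind was a median of 373 bp away (quartiles 147 and 1079), against 647 bp (205 and 2336.5) for narrow peaks in replicate 2 only. Some series-wide peak lay within 1 kb of 73.5% of the regions (71.2 to 75.7), against 59.1% (58.2 to 60.1) of the narrow peaks in replicate 2 only. For shared peaks over 1 kb the median was 232 bp, with a series-wide peak within 1 kb of 79.6% (73.5 to 84.6). Over all narrow series-wide peaks, the nearest series-wide peak was one of the 1445 regions in 10.7% of cases. This share was 25.6% (23.4 to 27.9) among the regions themselves, 21.9% (16.7 to 28.1) among shared peaks over 1 kb and 8.49% (7.98 to 9.03) among narrow peaks in replicate 2 only.

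Distances between neighbouring regions spanned a wide range. The gap from one region to the next had a median of 12229 bp, with quartiles of 1558.5 and 69381.5 bp. Of the 1439 gaps, 293 were 1 kb or less and 439 exceeded 50 kb. The shortest gap, 37 bp, was also the shortest gap within each of the 3 whole lists. Another region lay within 5 kb of 786 of the 1445 regions, or 54.4% (51.8 to 56.9). By chromosome this share was 62.6% on III, 62.5% on II, 51.5% on IV, 49.8% on V, 44.9% on I and 31.25% on X. The median gap was shortest on III at 6259 bp and longest on X at 93354 bp. Among all narrow peaks that met replicate 2, 85.2% had another such peak within 5 kb.

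Close neighbours mostly had matched replicate peaks of their own, where the matched peak is the one of longest overlap. None of the 293 pairs within 1 kb had the same matched replicate 1 peak, and 2 of them had the same matched replicate 2 peak. One of these pairs is II 2250206 to 2250561 and II 2250605 to 2251055, which are 43 bp apart and share a replicate 2 peak of 826 bp. The closest pair, V 19578344 to 19578629 and V 19578667 to 19578910, has its own matched peak for each region in each replicate. Of the 561 pairs within 5 kb, 315 had no other series-wide peak between them.

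**Figure D2:**
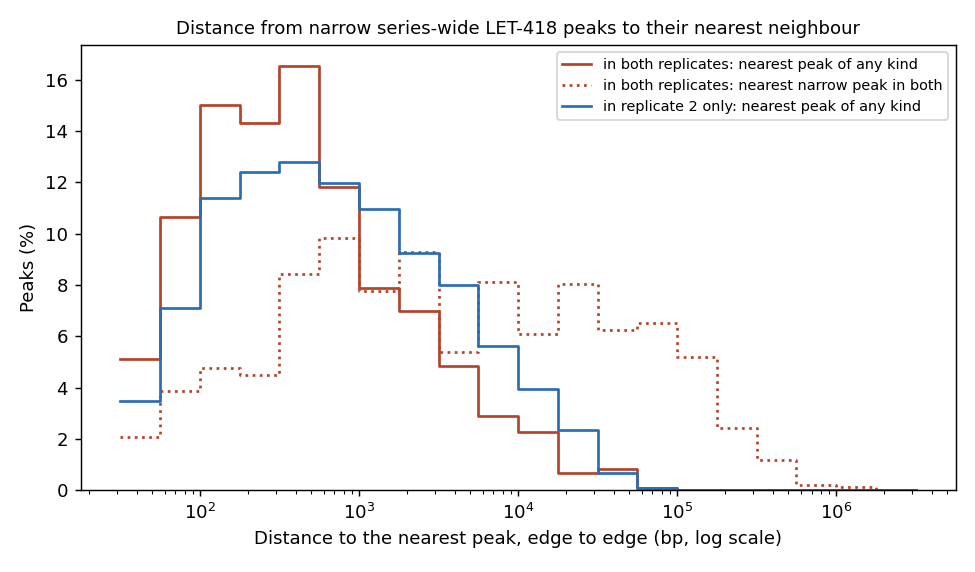
Distance from each peak to its nearest neighbour, edge to edge in bp on a log scale (horizontal axis), as a percent of peaks (vertical axis). The median distance to any series-wide peak is 373 bp for narrow peaks found in both replicates and 647 bp for those in replicate 2 only, and the median distance between regions found in both is 2951 bp.

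Joined at gaps of 5 kb or less, the regions formed 884 groups, of which 659 held a single region and 114 held 3 or more. These 114 groups took up 564 regions. The largest group, II 1324481 to 1358955, packed 20 regions into 34.5 kb, among 40 series-wide peaks. The group at II 2177346 to 2195068 held 16 regions in 17.7 kb, among 19 series-wide peaks. A group of 8 at III 3085235 to 3092433 held no other series-wide peak. Of the 5 groups with 11 regions or more, 4 were on II and the fifth was V 19592551 to 19614311 with 12 regions. At the other extreme, X 4522084 to 4522722 lay 1241115 bp from the nearest other region, and X 2853191 to 2853559 lay 1018866 bp from it. Outside X the most isolated region was V 203506 to 204100, at 772733 bp.

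The edges of the regions followed replicate 2 closely and enclosed the replicate 1 peak. The overlap was measured as a Jaccard index, the shared length divided by the length covered by either peak. With the replicate peak of longest overlap, its median was 0.899 for replicate 2 (quartiles 0.785 and 0.948) and 0.602 for replicate 1 (0.426 and 0.701). The matched replicate 2 peak had a median width of 350 bp and the replicate 1 peak 202 bp. Both edges agreed to within 50 bp for 980 regions in replicate 2 and 318 in replicate 1. Within 10 bp they agreed for 237 regions in replicate 2 and 0 in replicate 1. No region had the same start and end in the series-wide list as in either replicate.

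The replicate 1 peak was nested inside the region almost without exception. It lay wholly inside in 1438 of 1445 regions, starting a median of 60 bp after the region's start (quartiles 38 and 126) and ending 59 bp before its end (38 and 118). The medians of the 2 sides were thus nearly equal, which does not show equal trimming within a region. In 1263 regions, or 87.4%, the replicate 1 peak also lay wholly inside the matched replicate 2 peak. The median distance between centres was 21.5 bp for replicate 1 and 12.5 bp for replicate 2. The centre was within 100 bp in 81.4% and 87.7% of the regions in replicates 1 and 2.

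Relative to replicate 2, the median edges of these regions lay close to 0, while those of the narrow peaks in replicate 2 only lay inside it. The replicate 2 peak began a median of 4 bp inside the region and ended 4 bp inside it. The quartiles were -10 and 23 at the start and -8 and 22 at the end, where negative values lie outside the region. These medians were 8 and 9 bp for the 484 regions with another within 1 kb. They were 0 and 0 bp for the 659 with none within 5 kb, and -2 and -3 bp for the 248 with none within 50 kb. For narrow peaks in replicate 2 only, the replicate 2 peak extended a median of 15 bp beyond the series-wide peak at both ends. The replicate 2 peak covered all of 21.5% of the regions (19.4 to 23.6), against 59.5% (58.6 to 60.4) of the narrow peaks in replicate 2 only. It lay wholly inside 40.5% of the regions (37.98 to 43.04), against 11.1% (10.5 to 11.7) of the narrow peaks in replicate 2 only. Scores and widths also differ between the classes, and their part in this difference was not tested.

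**Figure D3:**
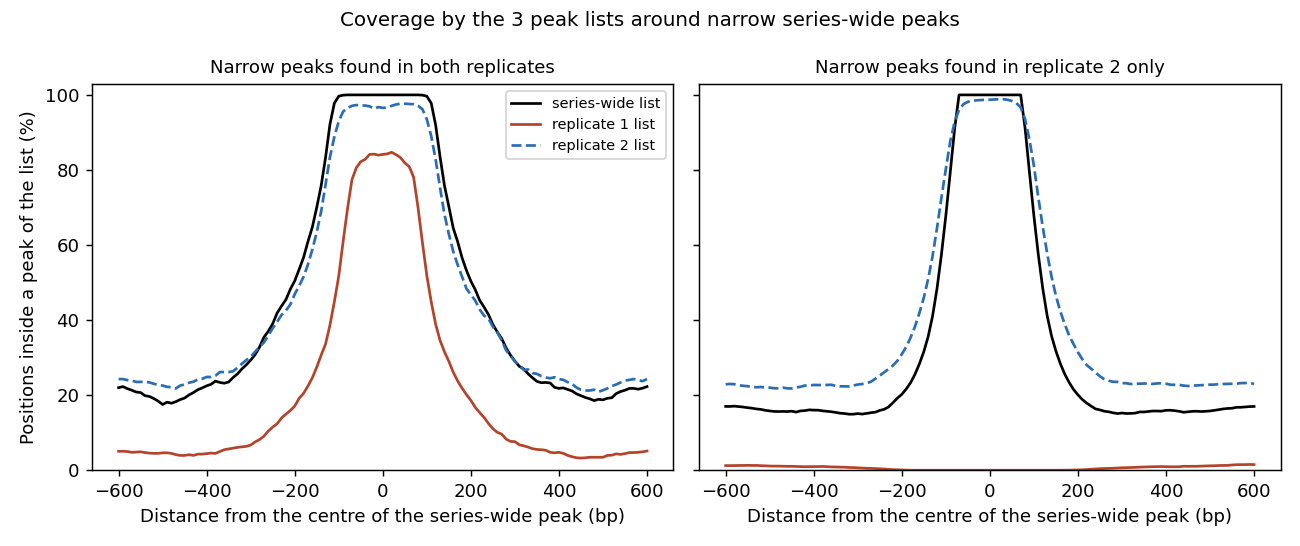
Percent of positions that lie inside a peak of the series-wide, replicate 1 or replicate 2 list (vertical axis) by distance in bp from the centre of the series-wide peak (horizontal axis), for narrow peaks found in both replicates (left) and in replicate 2 only (right). At 100 bp to the right of the centre of a peak found in both, replicate 1 covers 51.8% and replicate 2 covers 93.5%.

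Agreement with replicate 1 fell with the width of the region, and agreement with replicate 2 changed little. In regions of 300 bp or less the median Jaccard index was 0.686 with replicate 1 and 0.917 with replicate 2. In regions over 750 bp it was 0.351 with replicate 1 and 0.880 with replicate 2. The replicate 1 peak grew less than the region, with medians of 171 bp in the narrowest class and 303.5 bp in the widest, and so its share of the region fell to 35.1%, against 68.6% in the narrowest class. It also lay off centre in wide regions, by a median of 142 bp, against 6 bp in the narrowest class.

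Best and worst agreement show the range. At X 14104548 to 14104765, a region of 218 bp, the replicate 2 peak was shifted by 1 bp and the replicate 1 peak began 1 bp after the start and ended 27 bp before the end. At III 6116494 to 6116738, a region of 245 bp, the replicate 1 peak was 21 and 14 bp inside and the replicate 2 peak was 249 bp wide. The largest edge difference was at X 11603459 to 11604253, a region of 795 bp inside a replicate 2 peak of 3182 bp, with a replicate 1 peak of 282 bp. The next 2 were IV 4406646 to 4407489 and V 1155054 to 1155623, whose replicate 2 peaks are 2665 and 2566 bp wide. In all, 33 regions matched a replicate 2 peak wider than 1 kb, and no region matched such a replicate 1 peak.

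Most matches were simple. Exactly 1 peak was met by 1379 regions in replicate 1 and by 1356 in replicate 2, and 1268 regions, or 87.8%, met exactly 1 peak in each replicate that met no other series-wide peak. No matched replicate 1 peak met a second series-wide peak, and for 45 regions the matched replicate 2 peak did. In 34 regions the 2 matched replicate peaks did not meet each other, and in 33 of these the region held 2 or 3 peaks of 1 replicate. These 34 regions had a median width of 682 bp. In bp, the overlap was always well above the 1 bp that the rule asked for. The smallest with either replicate was 120 bp, at IV 1727493 to 1727880, followed by 131 bp at I 11228880 to 11229054. As a share of the region's length the overlap was often partial in replicate 1. The matched peak covered as little as 17.2% of a region in replicate 1, with a lower quartile of 42.6%. In replicate 2 the lowest was 19.8% and the lower quartile 86.2%.

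The regions ranked high in the series-wide list and in replicate 2 and evenly across replicate 1. Their median percentile was 92.6 in the series-wide list (quartiles 85.5 and 96.6), 87.8 in replicate 2 (76.5 and 95.1) and 52.97 in replicate 1 (26.97 and 76.5). A region that replicate 1 holds is drawn from a list of which these regions are the greater part, so a median near 50 there follows from the rule. The highest decile of each list holds by definition close to 10.0% of the series-wide list, 9.91% of replicate 1 and 9.99% of replicate 2. It held 899 of the regions (62.2%) in the series-wide list, 633 (43.8%) in replicate 2 and 155 (10.7%) in replicate 1. At or below the 50th percentile were 31 regions in the series-wide list, 68 in replicate 2 and 680 in replicate 1. Among all narrow peaks that met replicate 2, the median percentile was 51.02 in the series-wide list and 67.9 in replicate 2.

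The share of narrow series-wide peaks found in both replicates climbed steeply with the series-wide score. Of 20 equal groups by score, the highest had 86.6% in both replicates, the next 55.3% and the third from the top 27.1%. In the lowest 10 groups it stayed at 1.20% or less, while replicate 2 alone met between 85.99% and 92.5% of the same peaks. How the series-wide list was made is not given in the sources used here, so its score may already contain both replicates. Even in the highest decile of the series-wide score, 345 of 1369 peaks were not in both replicates, and a further 125 were in both but wider than 1 kb.

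**Figure D4:**
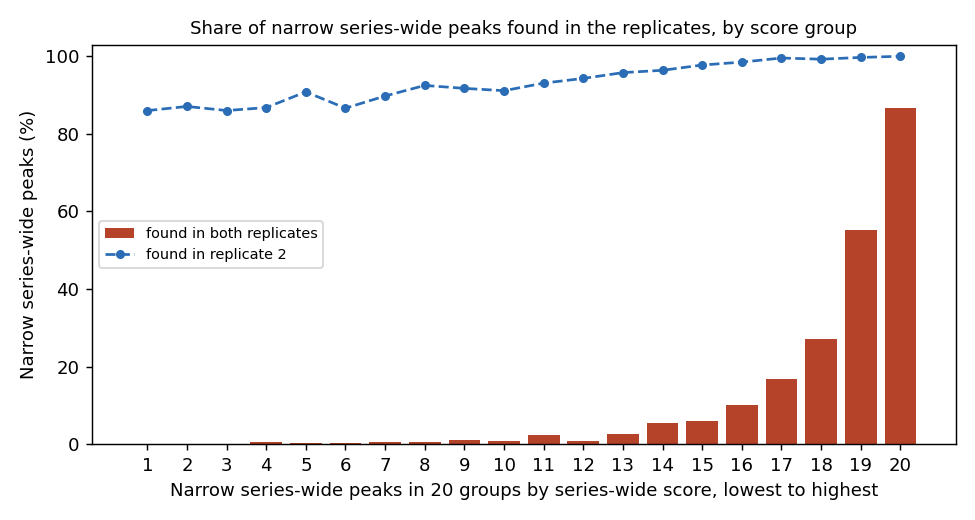
Percent of narrow series-wide peaks (vertical axis) found in both replicates (bars) and in replicate 2 (points and broken line) in 20 equal groups by series-wide score, lowest to highest (horizontal axis). The share in both replicates is 86.6% in the highest group and at most 1.20% in the lowest 10.

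Within broad classes of the series-wide score, X had the lowest share in the highest decile, while the intervals overlapped below the 75th percentile. In the highest decile of the series-wide score, 39.3% (28.1 to 51.9) of the narrow peaks on X were in both replicates, with 24 of 61. In the autosomal middle parts it was 72.4% (64.6 to 79.04) and in the autosomal outer parts 75.8% (73.1 to 78.3). Between the 75th and 90th percentiles it was 10.96% (7.48 to 15.8) on X, 17.01% (13.4 to 21.4) in the middle and 22.2% (20.1 to 24.5) in the outer parts, so X and the middle overlapped. Between the 50th and 75th percentiles it was 2.60% (1.495 to 4.49) on X, 4.24% (3.02 to 5.92) in the middle and 3.95% (3.20 to 4.87) in the outer parts. Below the median it was under 1% in each of these places. For width, unlike place, the intervals were separate in every score class. In the highest decile, 80.2% (77.2 to 82.9) of peaks of 300 to 1000 bp were in both replicates, against 62.5% (58.01 to 66.8) of those under 300 bp. Between the 75th and 90th percentiles it was 29.7% (26.9 to 32.7) against 11.2% (9.43 to 13.3). Between the 50th and 75th it was 8.14% (6.78 to 9.75) against 1.04% (0.683 to 1.59). Below the median it was 1.59% (1.07 to 2.35) against 0.132% (0.0639 to 0.272). The share changes steeply with score inside the highest decile, so scores there are not fully matched between places or widths.

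The 3 rankings of the regions were related but not the same. Across the 1445 regions, Spearman's rho was 0.78 between the series-wide list and replicate 1, 0.74 between the series-wide list and replicate 2, and 0.52 between the replicates. These values describe regions that share libraries and lie in clusters. Between the replicates it ranged from 0.36 on X to 0.62 on II. The replicate 2 percentile was above the replicate 1 percentile in 1341 regions and the series-wide percentile above both in 1039. The lists of replicate 1, replicate 2 and the series differ in length, with 1887, 19594 and 13690 peaks. Neither count is therefore read as a difference in binding. Why the series-wide percentile was often the highest was not tested. Replicate 1 scores fell on few values, with 271 distinct scores among the regions and 712 in replicate 2, and 101 regions shared the replicate 1 score 3.75. Width was almost unrelated to rank, with a rho of 0.03 in the series-wide list, -0.04 in replicate 1 and 0.06 in replicate 2.

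**Figure D5:**
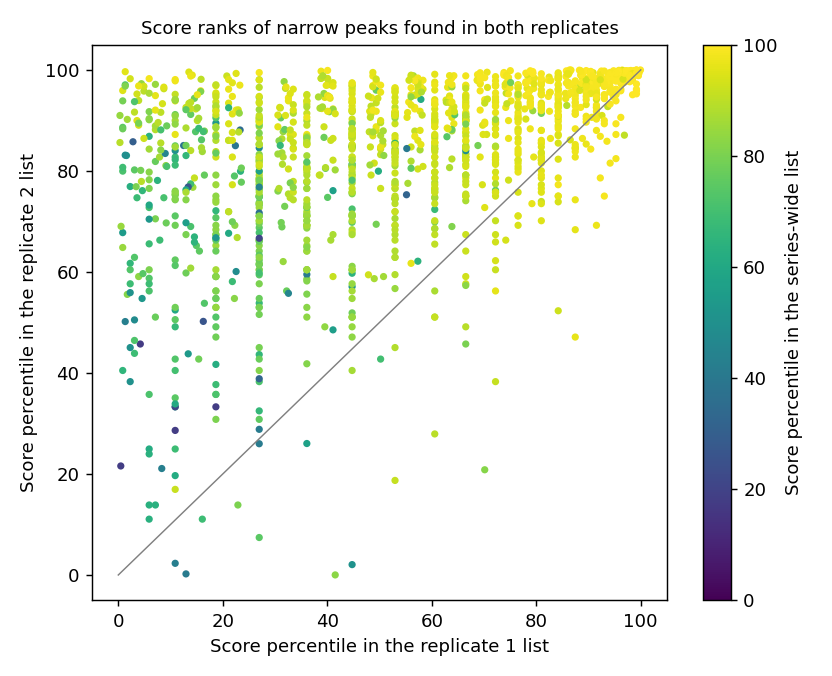
Score percentile of each of the 1445 narrow peaks found in both replicates in the replicate 1 list (horizontal axis) and the replicate 2 list (vertical axis), coloured by its percentile in the series-wide list, with a grey line where both are equal. In 1341 regions the point lies above the line, and columns of points mark replicate 1 scores that many regions share.

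A core of 141 regions was in the highest decile of all 3 lists. Of these, 43 lay on II, 40 lay on III, 22 lay on V, 4 lay on X, and I and IV had 16 each. The share on II was 30.5% of the core (23.5 to 38.5), against 20.3% of all regions. On every other chromosome the share of all regions lay inside the interval of the core. On III these were 27.0% of all regions and 28.4% of the core (21.6 to 36.3). The core regions had a median width of 473 bp, a median Jaccard index of 0.73 with replicate 1, and another region within a median of 1255 bp. The highest mean percentile belonged to II 732402 to 732778, with scores of 55.2 in the series-wide list, 19.64 in replicate 1 and 155.89 in replicate 2. The region at III 1519957 to 1520670 followed with 54.44, 19.61 and 131.76 in the same order of lists, and III 1042143 to 1043019 with 54.92, 19.39 and 100.94. At III 1042143 the replicate 1 peak spanned 837 of 877 bp. The 10 regions with the highest mean percentile also included I 2639669 to 2639978, V 9549425 to 9549766, IV 16845310 to 16845758 and V 19157877 to 19158223. The region V 9549425 to 9549766 lies in the middle part of its chromosome, and the other 3 of the 10 are on III.

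A second set of 130 regions was in the highest decile of the series-wide list and of replicate 2 but at or below the 50th percentile of replicate 1. Here III had 40 regions, V had 33, II had 20, I had 18, IV had 15 and X had 4. The share on V was 25.4% of this set (18.7 to 33.5), against 17.2% of all regions. On every other chromosome the share of all regions lay inside the interval of this set. On the autosomes 20.6% of this set (14.5 to 28.5) lay in the middle part, against 8.76% (5.08 to 14.7) of the core set. These intervals overlapped slightly, and among all autosomal regions the share was 14.8%. The median width of its regions was 427.5 bp, and the nearest other region was a median of 5179 bp away. The widest difference was at II 14250999 to 14251870, with scores of 29.29 in the series-wide list, 1.64 in replicate 1 and 112.93 in replicate 2. There the replicate 1 peak covered 157 of 872 bp, while the replicate 2 peak covered all of it. The region III 7498338 to 7498925 had scores of 25.01, 1.83 and 75.65 in the same order of lists.

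A higher percentile in replicate 1 was the less common case, since the replicate 2 percentile was higher in 1341 of the 1445 regions. The regions met 80.2% of the replicate 1 list and 7.82% of the far longer replicate 2 list, so the 2 percentiles are not on like terms. The largest excess of the replicate 1 percentile over that of replicate 2 was 49.3, at II 13636172 to 13636737, where the scores were 16.14 in the series-wide list, 7.03 in replicate 1 and 4.78 in replicate 2. At I 11599349 to 11600145 the scores were 30.9, 9.89 and 8.73 in the same order. In 4 of the 5 largest cases the region met 2 peaks of replicate 2, so the matched peak was part of what replicate 2 called there. The matched replicate 2 peak covered 187 of 797 bp at the region on I.

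Regions with a close neighbour ranked higher in the series-wide list and in replicate 1. The 484 regions with another within 1 kb had median percentiles of 95.2 in the series-wide list, 61.7 in replicate 1 and 88.7 in replicate 2. The 248 regions with none within 50 kb had 88.7, 39.9 and 88.2 in the same order. Neighbours within 5 kb had smaller percentile differences than those farther apart. The median difference in series-wide percentile was 4.44 for the 293 pairs within 1 kb, 5.25 for gaps of over 1 to 5 kb, 6.83 for gaps of over 5 to 50 kb and 10.6 beyond. In replicate 1 these differences were 20.4, 23.6, 29.6 and 30.4, and in replicate 2 they were 7.98, 9.32, 12.1 and 11.8, with no further widening beyond 50 kb. Close pairs also lay nearer the top of the scale, which leaves less room for a difference. Among pairs with matched replicate peaks of their own, the neighbours' series-wide percentiles had a weak Spearman's rho. It was 0.25, 0.24, 0.08 and -0.03 from the shortest to the longest gaps.

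Regions that were strong in replicate 1 also had the better edges there. With a replicate 1 percentile over 75 the median Jaccard index with replicate 1 was 0.711, and with a percentile of 25 or less it was 0.460. The replicate 1 peak was 251 bp wide in the stronger class and 187.5 bp in the weaker. The index with replicate 2 was 0.908 in the stronger class and 0.886 in the weaker. From the weakest to the strongest of 4 classes, cut at replicate 1 percentiles of 25, 50 and 75, the replicate 2 peak had median widths of 453, 327, 306 and 340 bp, with no steady order. The part of width in this relation was not tested.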

How the data were processed

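LET-418 ChIP-seq peaks from 2 ChIP replicates and 1 series-wide list were used; the 2 input samples have no list used here. Peaks were called by the authors with MACS on WormBase WS220, per the file headers and source columns, and BWA and ce10 are named in the submitters' processing notes. How the series-wide list was made, and the versions, thresholds and filters, were not given in the sources used here. The authors deposited 1 score per peak with no named scale, and it was ranked only within its list (average rank for ties). Depth is unknown, since the lists hold no read counts. Starts and ends are 1-based.

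Lists were not filtered. A region was matched to the replicate peak of longest overlap. Gaps are edge to edge, and a chromosome ends at the last peak in any list. Shares carry 95% Wilson intervals, and no test was made, because members were chosen from the same lists. Regions named follow a rule on extremes of rank, edges, gaps, width and overlap; the first 500 kb of X, the fullest bins, the narrowest region, the 2 sets defined by highest deciles, and III 3085235 to 3092433 were picked once their values had been seen. The members and lists were chosen with earlier results of these data known. The overlap, gap and edge steps were tested on simulated data. Nothing in the labels says whether replicates came from separate cultures. Work was done in Python 3.11.15, with pandas 2.3.3, NumPy 2.4.6, Matplotlib 3.10.9 and SciPy 1.17.1.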

Additional observations from a re-analysis of the deposited data

How the results depend on the processing

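Of 60 alternative values, 31 stayed inside the main interval (Wilson for shares, binomial for medians) and 29 did not. Requiring that 50% of the series-wide peak be covered moved the share of narrow peaks in both replicates to 6.98% (main 10.9%), the share with another region within 5 kb to 48.7% (main 54.4%), the median Jaccard index to 0.670 with replicate 1 and 0.906 with replicate 2, and the median percentile to 93.8 in the series-wide list and 60.6 in replicate 1. Requiring 50% of both peaks gave 6.84%, 48.2%, 0.670, 0.907, 93.8 and 60.6. With a width limit of 500 bp the share in both was 8.14%, the share within 5 kb 46.7%, the share in the autosomal middle parts 17.1% (main 14.8%) and the Jaccard index with replicate 1 0.642. At or above the median series-wide score the share in both was 21.4%. With 1-to-1 matches only, the Jaccard index was 0.619 with replicate 1 and 0.907 with replicate 2. With replicate 2 limited to as many of its highest scores as replicate 1 has peaks, a choice made after seeing the data, the share in both was 4.67%, the share in the middle parts 17.4% and the share within 5 kb 41.4%. The fall in numbers under these settings comes from their stricter construction; the cause of the other shifts was not tested. The share on X lay within its main interval under all of these settings.

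Without replicate 1 or without replicate 2, the share of narrow peaks ran from 10.98% to 93.1%, the share on X from 4.38% to 14.5%, the share in the middle parts from 14.7% to 25.8% and the share within 5 kb from 54.5% to 85.2%. The median series-wide percentile ran from 51.02 to 92.5. The higher shares and the lower percentile are those without replicate 1. Without replicate 1 the Jaccard index with replicate 2 was 0.824 and the replicate 2 percentile 67.9. Without replicate 2 the Jaccard index with replicate 1 was 0.603 and the replicate 1 percentile 52.97. No paired analysis was possible because the input samples have no list of their own here. ChIP and input samples carry the same replicate numbers but could not be compared. Depth is unknown, and whether the short replicate 1 list reflects fewer reads or weaker enrichment cannot be told apart.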

Other observations

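A further 15 narrow series-wide peaks met a replicate 1 peak and no replicate 2 peak. Their median width was 269 bp, and their median percentile was 74.3 in the series-wide list and 44.8 in replicate 1. The replicate 1 peak lay inside the series-wide peak at both ends in each of them, by a median of 24 bp at the start and 35 bp at the end. Another 898 narrow series-wide peaks met neither replicate list. They had a median width of 174 bp and a median series-wide percentile of 25.4, and the highest of them reached 85.2.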
